A study of Drosophila melanogaster with 24 samples.

Results

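The sex by injury interaction at 2 h after traumatic brain injury (TBI) is the change at 2 h post-TBI in male *tau*-KO brains minus the change at 2 h post-TBI in female *tau*-KO brains. It was formed from 12 of the 24 libraries, 3 in each of 4 groups, namely injured males at 2 h (male 2 h), uninjured males (male control), injured females at 2 h (female 2 h) and uninjured females (female control). Every fly, the controls included, was of 1 *tau*-KO line that lacks exons 2 to 6 of *tau*, so the contrast compares the sexes with no Tau in either. The flies were mated adults 10 to 14 days old, and the injured ones had received a single full-body strike in a spring-driven high-impact trauma device, so organs other than the brain were struck too. Each library was made from 15 ng of RNA of 1 brain with a kit that reads the 3′ ends of polyadenylated transcripts. The other 12 libraries, from flies at 1 h and 4 h post-TBI, enter here only through the shared estimate of the spread and for the same contrast at those times. A positive interaction means that the log2 fold change (log2 FC, injured over control) was higher in males than in females, and a negative one that it was lower.

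Tau is a microtubule-binding protein of axons. In flies and in mammals a closed head injury sets off an early transcriptional response that includes antimicrobial and other immune genes, chaperones, metabolic enzymes and neuronal genes, and males and females differ in many of these programs before any injury. An interaction therefore has 4 parts, and a gene can enter it through the injured males, the injured females or either control group. In a bulk library, fewer cells of a type and less RNA per cell cannot be told apart.

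The 12 libraries held between 117416 (male control 1) and 1471729 reads assigned to genes, with a median of 883455, so that a single read was worth 7.04 CPM in male control 1 (CPM, counts per 1000000 reads assigned to genes, with TMM-scaled totals). Male control 2 stood apart. Its profile had a correlation of 0.686 with the mean of the other 11 libraries, against 0.87 to 0.949 for the rest. All 16 neuron markers, among them *elav* and *nSyb*, had reads in every library, and their summed level was 3882 to 5089 CPM in male 2 h, 2198 to 5006 CPM in male control, 3463 to 5291 CPM in female 2 h and 3358 to 4816 CPM in female control brains. Markers of other tissues were present as well. The 18 muscle markers summed to 4475 to 4564 CPM in male 2 h, 689.5 to 4545 CPM in male control, 4322 to 4835 CPM in female 2 h and 3984 to 4852 CPM in female control brains, with the low male value in male control 2. The 12 tested antenna markers summed to 376.2 to 583.2 CPM in male 2 h, 471.7 to 1391 CPM in male control, 282.2 to 619.2 CPM in female 2 h and 472.1 to 8094 CPM in female control brains, with the high value in female control 2. Of the full list of 16, *Obp59a* and *Obp84a* had no read in any of the 12 libraries. The targeted gene, *tau*, gave 104 to 191 CPM in male 2 h, 88.2 to 141 CPM in male control, 131 to 178 CPM in female 2 h and 117 to 180 CPM in female control brains, and its interaction was 0.45 ± 0.54 (SE). A 3′ read that lies outside the deleted exons is no check of the deletion.

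Of 7865 tested genes, 287 (3.65%) passed an unadjusted p of 0.05 with an absolute log2 FC over 1 in the interaction by edgeR's quasi-likelihood test. Of these, 119 (1.51%) were positive and 168 (2.14%) negative. With RLE in place of TMM scaling the split was 94 positive and 213 negative, and the median of all tested genes moved by -0.17, to -0.13. No gene (0.0%) passed a false discovery rate (FDR) of 0.05 in edgeR, where 289 genes (3.67%) had an unadjusted p under 0.05 and the lowest adjusted p was 0.9999. By other tools, 1 gene passed that FDR in DESeq2 and none in limma voom, with 309 and 638 genes under an unadjusted p of 0.05. Where no gene differs, that threshold passes a share near 0.05 of the genes. The edgeR and DESeq2 shares were below that, and the limma voom share was above it. All p-values measure the spread between single-brain libraries, and since no call survived adjustment, the calls below describe which genes lay farthest out and establish none of them singly.

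The called genes were mostly of low abundance and large fitted size. Their median absolute log2 FC was 5.33, with a median log2 CPM of 3.16, against 4.55 over all tested genes, and the median SE of the interaction was 1.29, against 0.93 for the male change and 0.91 for the female change alone. Among the 287, 177 genes (61.7%) had 3 reads or fewer in at least 1 of the 4 groups, against 18.2% of all tested genes. In 138 of the called genes 1 group or more had no read at all. The positive genes had a median log2 FC of 2.35 in males and -1.45 in females, and the negative genes -3.31 in males and 1.00 in females, against -0.02 in each sex over all tested genes.

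**Figure D1:**
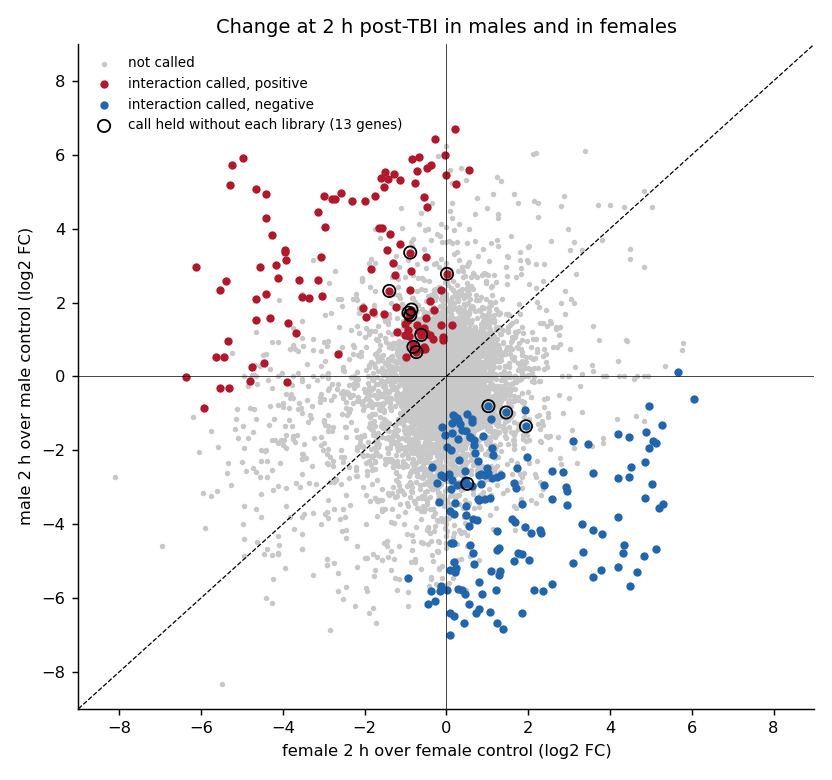
Each point is 1 of 7865 tested genes, with the fitted log2 FC of male 2 h over male control on the vertical axis and of female 2 h over female control on the horizontal axis, and the dashed line marks equal change. The 119 positive calls lie above the line and the 168 negative calls below it, while the 13 circled genes have interactions between -3.42 and 4.24.

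Much of the list depended on single libraries, male control 2 the most. Male control 2 was the highest of the 3 male controls for 132 of the 168 negative calls (78.6%), against 40.2% of all tested genes. It was the lowest or tied lowest for 90 of the 119 positive calls (75.6%), against 39.2% of all tested genes. Ties include genes with no read in any male control, and 138 called genes had a group with no read. The 39.2% is therefore not a like comparison. Without male control 2, 186 genes were called, of which 105 were among the 287. The count was 476 without female 2 h 3, 470 without female control 2 (100 positive and 370 negative), 455 without male control 3 (278 positive and 177 negative) and 449 without male control 1. It stayed between 199 and 321 when any of the other 7 libraries was left out. Of the 287, however, 138 were still called without female 2 h 1, 139 without male 2 h 2 and 160 without female control 3.

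**Figure D2:**
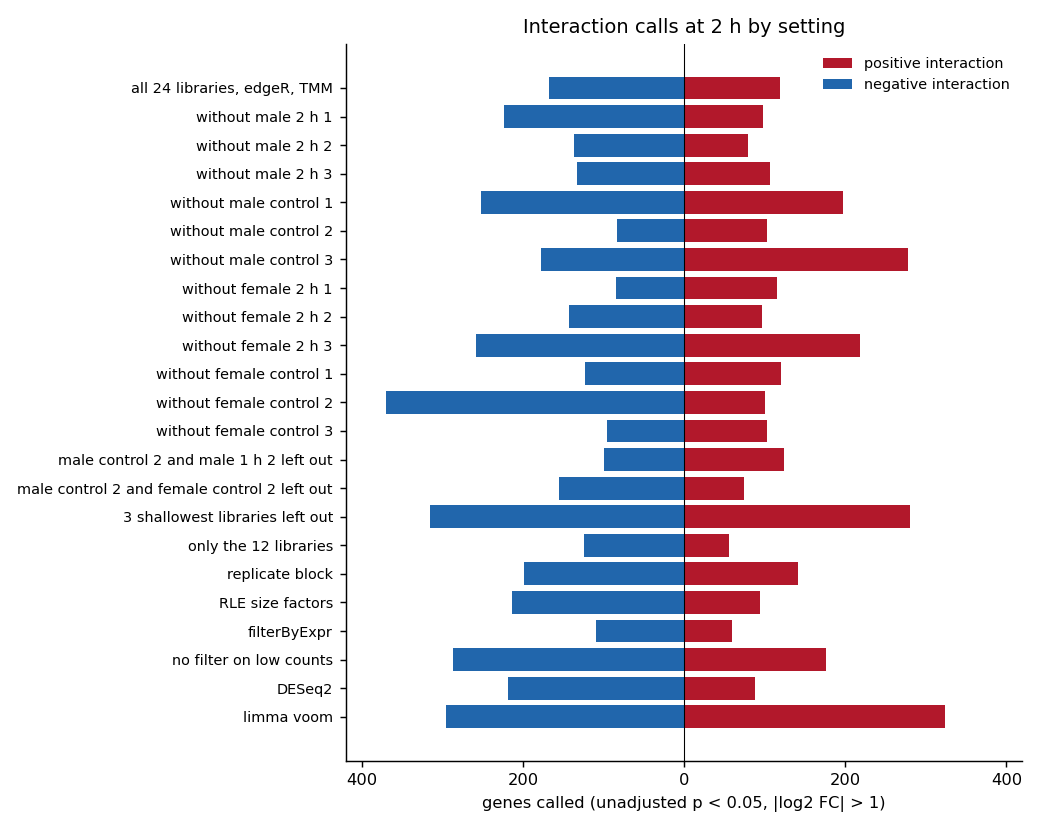
Bars give the number of genes called in the interaction at 2 h, positive to the right and negative to the left, for the fit to all 24 libraries and for each left-out library or other setting. The total ran from 168 with edgeR's own filter to 620 with limma voom.

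The call held with each of the 12 libraries left out in turn for 42 genes (0.534%), of which 26 were positive and 16 negative. Only 13 of the 42 had more than 3 reads in each of the 4 groups, and they are described first. They comprise 9 positive genes (*CG12950*, *CG6812*, *Tsp42Eg*, *CG4000*, *CG31710*, *CG32452*, *LpR1*, *Ufc1* and *NimB3*) and 4 negative genes (*Sps2*, *CG15602*, *GlnRS* and *Sec61alpha*).

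*Tsp42Eg* encodes a tetraspanin, one of a family of membrane proteins with 4 spans that organise receptors. It had 36.3, 54.4 and 42.6 CPM in male 2 h brains, against 28.2, 7.27 and 10.5 CPM in male controls. In females it had 23.6, 10.2 and 30.4 CPM at 2 h, against 45.5, 33.3 and 35.7 CPM in controls. All injured males lay above all male controls, and all injured females below all female controls. The log2 FC was 1.81 ± 0.62 in males and -0.86 ± 0.57 in females (SE, n = 3 per group), and the interaction was 2.66 ± 0.84 (unadjusted p = 0.004, adjusted p = 0.9999 by edgeR).

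*CG32452*, for which no role is given here, behaved the same way. It had 25.9, 49.1 and 31.4 CPM in male 2 h brains, against 21.1, 3.23 and 14.7 CPM in male controls, and 10.4, 22.3 and 25.4 CPM in female 2 h brains, against 28.9, 31.6 and 45 CPM in female controls. Neither sex's groups overlapped. The interaction was 2.54 ± 0.91 (unadjusted p = 0.00988), from 1.66 in males and -0.88 in females.

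*Sps2*, a selenophosphate synthetase that supplies activated selenium, was the mirror image. It had 38.0, 34.0 and 33.6 CPM in male 2 h brains, against 56.3, 87.2 and 39.9 CPM in male controls. Female brains had 63.2, 66.9 and 48.2 CPM at 2 h, against 31.0, 31.6 and 25.1 CPM in controls. Injured males lay below every male control and injured females above every female control. The log2 FC was -0.81 ± 0.46 in males and 1.03 ± 0.46 in females, and the interaction -1.83 ± 0.65 (unadjusted p = 0.00906). Such opposite, non-overlapping movement was seen in 13 of the 7865 tested genes (0.165%), 9 of them with males higher and females lower after injury and 4 the other way round, and 9 of the 13 were called.

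*LpR1*, a lipophorin receptor of the LDL receptor family that takes up lipid particles, had 74.4, 95.9 and 132 CPM in male 2 h brains, against 42.2, 42.0 and 85.0 CPM in male controls. In females it had 68.9, 38.1 and 73.6 CPM at 2 h, against 97.1, 113 and 103 CPM in controls. The male groups overlapped through 1 control, and the female groups did not overlap. The interaction was 1.60 ± 0.58 (unadjusted p = 0.0106), from 0.80 ± 0.41 in males and -0.81 ± 0.41 in females.

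*Ufc1* encodes the conjugating enzyme for the ubiquitin-like modifier UFM1, which acts at the endoplasmic reticulum (ER). It had 81.3, 48.4 and 85.2 CPM in male 2 h brains, against 21.1, 16.9 and 55.6 CPM in male controls, and 33, 64.1 and 83.8 CPM in female 2 h brains, against 82.7, 79.0 and 112 CPM in female controls. The groups overlapped in both sexes. The interaction was 1.74 ± 0.66 (unadjusted p = 0.0137).

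*NimB3* belongs to the Nimrod family, several members of which bind microbes or take part in phagocytosis. It had 20.8, 31.0 and 40.4 CPM in male 2 h brains, against 0, 0 and 10.5 CPM in male controls, and 17.0, 39.0 and 33 CPM in female 2 h brains, against 26.9, 31.6 and 29.1 CPM in female controls. Here the 3 male controls alone were low, and the other 9 libraries overlapped. The interaction was 2.76 ± 1.08 (unadjusted p = 0.0164), from 2.77 ± 0.83 in males and 0.01 ± 0.71 in females. Without male control 3, the only male control with reads, the fitted value was 7.59, and without male control 2 it was 1.99.

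*CG12950* had the largest interaction of the 9 positive genes. It had 12.1, 40.8 and 35.9 CPM in male 2 h brains, against 7.04, 3.23 and 1.05 CPM in male controls, and 7.55, 27.9 and 15.2 CPM in female 2 h brains, against 33.1, 27.2 and 34.4 CPM in female controls. Male controls lay below every other library, but on only 1, 4 and 1 reads. The 7.04 CPM of male control 1 is a single read, close to the 7.55 CPM of female 2 h 1. The interaction was 4.24 ± 1.27 (unadjusted p = 0.0026), from 3.35 ± 0.99 in males and -0.89 ± 0.80 in females. The other 3 positive genes, which have no role given here, had interactions of 2.65 ± 0.83 (*CG6812*), 1.39 ± 0.49 (*CG4000*) and 3.71 ± 1.32 (*CG31710*). *CG4000* was the most abundant of the 9, with 316, 400 and 350 CPM in male 2 h, 204, 151 and 319 CPM in male control, 302, 372 and 353 CPM in female 2 h and 327, 826 and 554 CPM in female control brains. Its exons overlap an antisense RNA gene, and those of *Ufc1* overlap *Tmem131*. The strand setting of the count was not given in the sources used here. How reads of such overlaps were assigned, or set aside as ambiguous, is therefore not known. Exons of other genes named below, among them *CG1902*, *RpL31*, *Tom20* and *arm*, overlap another gene too.

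Among the negative genes, *Sec61alpha* encodes the pore of the ER translocon, through which new secretory proteins pass. It had 22.5, 13.6 and 15.7 CPM in male 2 h brains, against 7.04, 49.2 and 37.8 CPM in male controls, and 33, 46.4 and 27.9 CPM in female 2 h brains, against 16.5, 18.4 and 3.97 CPM in female controls. The female groups did not overlap, and the male groups did so through male control 1, whose value is a single read. The interaction was -2.44 ± 0.93 (unadjusted p = 0.0142), from -0.98 in males and 1.46 in females.

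*GlnRS*, the tRNA synthetase for glutamine, had 13.8, 15.9 and 6.73 CPM in male 2 h brains, against 7.04, 48.4 and 33.6 CPM in male controls, and 29.3, 29.7 and 12.7 CPM in female 2 h brains, against 10.3, 2.63 and 6.61 CPM in female controls. Again the female groups were apart and the male groups overlapped through male control 1. The interaction was -3.30 ± 1.23 (unadjusted p = 0.0128), and the exons of *GlnRS* overlap *CG11858*. *CG15602* had 1.73, 2.27 and 2.24 CPM in male 2 h brains, against 7.04, 20.2 and 19.9 CPM in male controls, and 12.3, 23.2 and 10.2 CPM in female 2 h brains, against 4.13, 10.5 and 17.2 CPM in female controls. Only the injured males stood low, and the interaction was -3.42 ± 1.22 (unadjusted p = 0.0092).

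**Figure D3:**
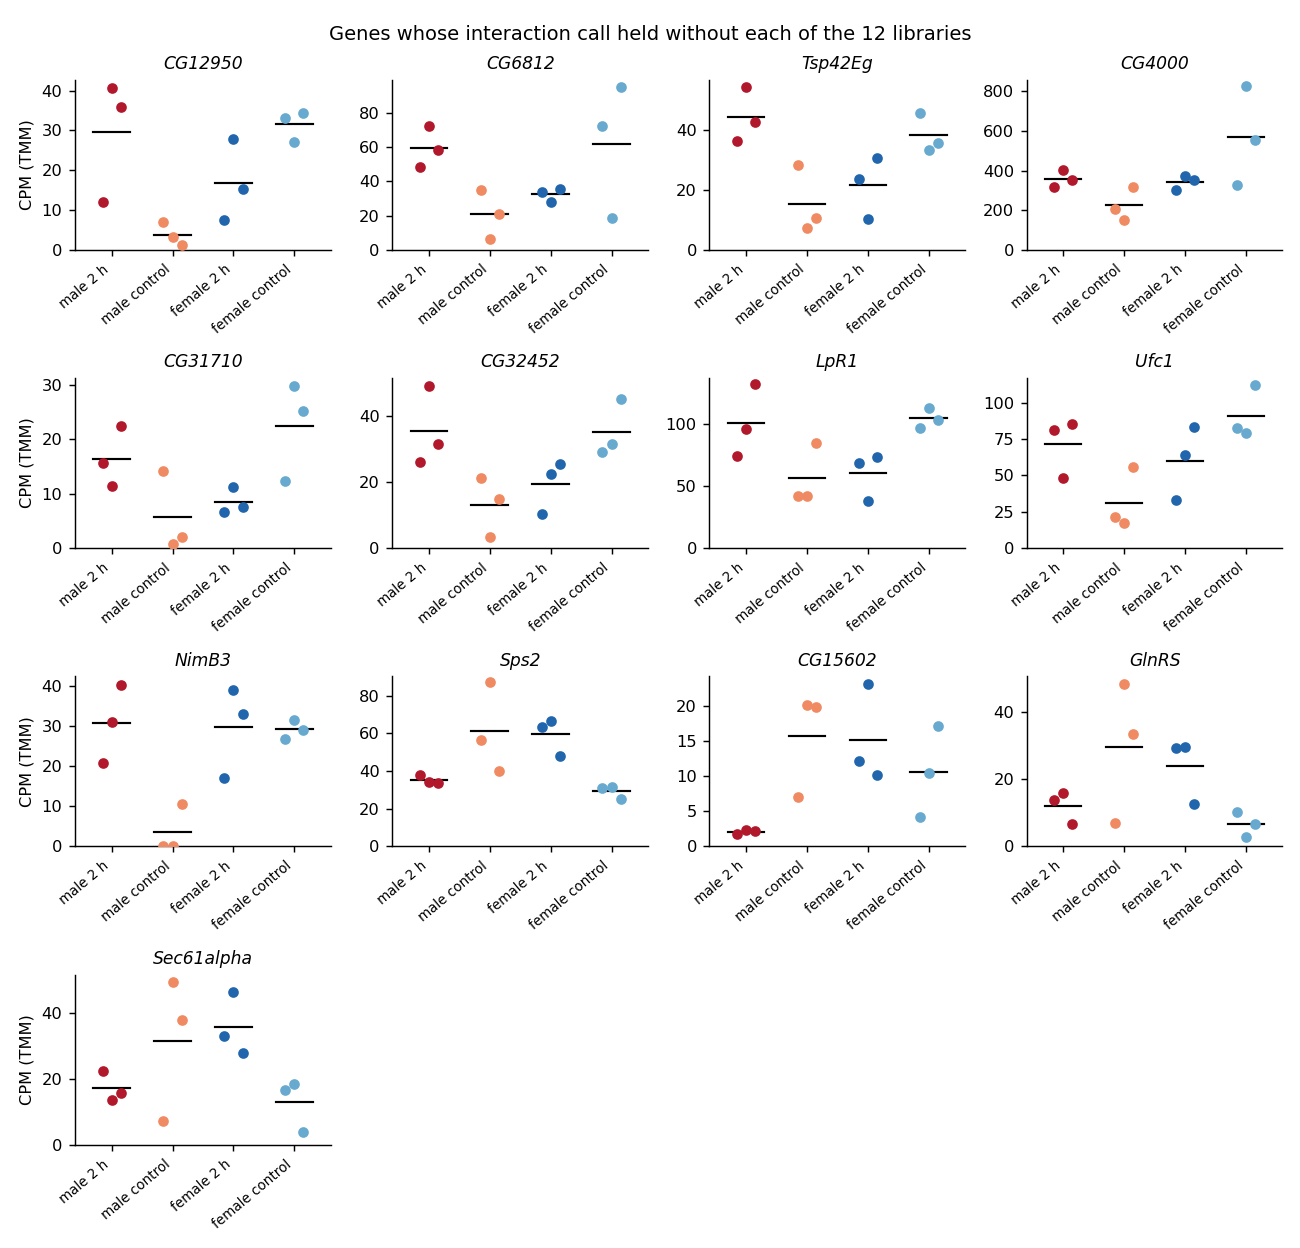
CPM of the 13 genes in each library, with male 2 h, male control, female 2 h and female control from left to right, points for single brains and bars for the mean of 3. In each of the 9 positive genes the male controls have the lowest mean of the 4 groups, for example *CG12950* with 1.05 to 7.04 CPM in male and 27.2 to 34.4 CPM in female controls.

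Over the 9 positive genes, the log2 ratio of male to female controls ran from -3.43 to -0.85 and the log2 ratio of male to female 2 h brains from 0.05 to 1.09. By the same call rule, 8 of the 9 passed between the controls, where 238 of all tested genes (3.03%) did, and 0 of the 9 between the 2 h groups, where 220 (2.80%) did. No gene passed an FDR of 0.05 by edgeR in either of these comparisons. For the 4 negative genes the ratio was 0.63 to 2.34 between controls (3 passed) and -2.79 to -0.76 between 2 h groups (1 passed, *CG15602*). Over the 119 positive calls the median log2 ratio of males to females was 1.61 at 2 h and -2.59 in controls, and over the 168 negative calls -2.78 at 2 h and 1.82 in controls, against 0.00 at 2 h and -0.01 in controls for all tested genes. These ratios are parts of the same interaction and are given as its make-up, not as further support.

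With male control 2 and female control 2 both left out, 6 of the 13 genes were no longer called, all with their direction kept. Their interactions were then 0.79 (*CG4000*), 2.67 (*CG31710*), 1.32 (*LpR1*), 1.92 (*NimB3*), -1.49 (*Sps2*) and -2.41 (*GlnRS*). *CG4000* was also not called by limma voom, at 0.81.

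The same contrast at 1 h called 239 genes (3.04%) and at 4 h 240 genes (3.05%). The 3 contrasts share the 6 control libraries, so their values are given side by side and their likeness is not read. At 1, 2 and 4 h the interaction was 1.87, 2.66 and 0.62 for *Tsp42Eg*, 1.54, 2.54 and 2.00 for *CG32452*, 1.01, 1.60 and 0.42 for *LpR1*, and 2.80, 4.24 and 3.86 for *CG12950*. It was -0.33, -1.83 and -0.89 for *Sps2*, -0.34, -3.42 and -1.07 for *CG15602*, -1.15, -3.30 and -0.88 for *GlnRS*, and -0.82, -2.44 and -2.12 for *Sec61alpha*. Whether these values differ between times was not tested.

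The other 29 of the 42 genes had 3 reads or fewer in a group, so their values are read counts. *CR45539* had 26 reads in male 2 h, 0 in male control, 0 in female 2 h and 12 in female control brains. *CG3253* had 13 reads in male 2 h, 0 in male control, 0 in female 2 h and 10 in female control brains, and *CG7367* had 25, 0, 0 and 11 in those groups. In the opposite direction *nst*, a phosphoacetylglucosamine mutase, had 0 reads in male 2 h, 17 in male control, 34 in female 2 h and 2 in female control brains, and *CG14015* had 0 in male 2 h, 38 in male control, 42 in female 2 h and 16 in female control brains. *SLC22A*, an organic cation transporter homolog, had 0 reads in male 2 h, 46 in male control, 26 in female 2 h and 18 in female control brains. *CG8080* had 1 read in male 2 h, 129 in male control (111 of them in male control 2), 23 in female 2 h and 15 in female control brains. *Cyp6v1*, a cytochrome P450, was read in all injured males and females and all female controls but in no male control. *CG8080* aside, each of these genes had a group with all libraries at 0, where the fitted log2 FC depends on the prior count. It is given for none of them, nor for *CG8080* with 1 read in a group.

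Among genes with more than 3 reads in each group, 97 calls were lost when some library was left out. *Crz*, the neuropeptide corazonin, had 10.4, 16.6 and 8.97 CPM in male 2 h brains, against 28.2, 143 and 68.2 CPM in male controls. In females it had 67, 36.2 and 17.8 CPM at 2 h, against 37.2, 57.9 and 33.1 CPM in controls. Injured males lay below every male control, and the female groups overlapped. The interaction was -2.67 ± 1.01 (unadjusted p = 0.0139), and it was -1.97 and not called without male control 2, and also not called without female 2 h 1.

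*ImpL2*, a secreted protein that binds insulin-like peptides, had 133, 56.7 and 78.5 CPM in male 2 h brains, against 211, 359 and 222 CPM in male controls. In females it had 132, 128 and 99.0 CPM at 2 h, against 153, 108 and 111 CPM in controls. All 3 injured males were lower than all male controls, at a log2 FC of -1.58 ± 0.47, against -0.04 ± 0.46 in females. The interaction of -1.54 ± 0.66 (unadjusted p = 0.0272) was not called without male control 2 (-1.24) or without any 1 of 4 other libraries (female control 2 or 3, male 2 h 2 or 3), and its exons overlap *CG46460* on the same strand. *Ilp6*, an insulin-like peptide made chiefly in fat body, went the other way, at 1.70 ± 0.70. It had 58.8, 67.2 and 74.0 CPM in male 2 h, 21.1, 15.3 and 67.2 CPM in male control, 34.9, 60.4 and 66.0 CPM in female 2 h and 97.1, 56.1 and 131 CPM in female control brains. That call was lost without any 1 of 4 libraries, male controls 1 and 2, female 2 h 1 and female control 3. Of 27 tested insulin and TOR genes, 2 were called positive and 3 negative (1.51% and 2.14% of all tested genes were), and their median was 0.20, against 0.04 for all tested genes. The calls included *Tor*, the growth-control kinase, and *Sin1*, a subunit of TOR complex 2. *Tor* had 0 reads in male 2 h, 15 in male control, 14 in female 2 h and 3 in female control brains. Of the 15, 14 were in male control 2, without which the call was lost. *Sin1* had 2, 2, 0 and 35 reads in those groups.

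*Ptp4E*, a receptor tyrosine phosphatase, had 43.2, 99.7 and 60.6 CPM in male 2 h brains, against 35.2, 23.4 and 31.5 CPM in male controls, and 49.1, 62.2 and 30.4 CPM in female 2 h brains, against 84.7, 50.9 and 93.9 CPM in female controls. Its interaction of 1.89 ± 0.70 (unadjusted p = 0.0122) was not called without male 2 h 2. *Crys*, a crystallin known from the lens of the fly eye, had an interaction of 3.11 ± 1.23 that was not called without male control 2. *CG1902*, at -2.58 ± 0.85, had 12.1, 9.82 and 8.97 CPM in male 2 h brains, against 21.1, 91.2 and 31.5 CPM in male controls, and was -1.71 and not called without male control 2.

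Of 24 tested antimicrobial peptide genes, effectors of the humoral response of the fly, none was called in either direction, where 3.65% of all tested genes were, a share at which few or no calls fall in a list of this size. Their median interaction was -0.60, with 10 positive and 14 negative. *Drs* (drosomycin) had 474, 1982 and 289 CPM in male 2 h brains, against 275, 593 and 607 CPM in male controls, and 382, 426 and 332 CPM in female 2 h brains, against 384, 304 and 392 CPM in female controls. One injured male was far above the other 11 libraries, and the interaction was 0.81 ± 0.68 with it and -0.45 without it. *Mtk* (metchnikowin) had its highest value in the same brain, 703 CPM, and an interaction of 0.98 ± 0.89 with it and -0.15 without it. Neither was called with or without that brain. *Mtk* was also high in male control 3, at 433.5 CPM. Its left-out fits ran from -0.15 to 2.31, and 1 of them was called.

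Several other peptide genes were high in male control 3 as well. *CecA1* had 6.92, 6.04 and 6.73 CPM in male 2 h brains, against 0, 1.61 and 142 CPM in male controls, and 13.2, 8.36 and 7.61 CPM in female 2 h brains, against 14.5, 1.75 and 3.97 CPM in female controls. Without that control its interaction was 1.5, against -3.61 ± 1.83 with it. *DptB* had 112 CPM and *AttC* 236 CPM in male control 3, and their interactions were 2.86 and 1.87 without it, against -5.18 ± 2.56 and -2.23 ± 1.69 with it. Upstream of these effectors, 32 tested Toll and Imd components had a median of 0.05 with 1 call, positive, for *Fadd*, the death-domain adaptor of the Imd pathway. *Fadd* had 0 reads in all 3 male controls.

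Of 31 tested neuropeptide and hormone genes, 25 had a negative interaction and 6 a positive one, with a median of -0.77, against 0.04 for all tested genes. The 3 called were all negative, *Crz*, *ImpL2* and *AstA* (allatostatin A, -1.82 ± 0.80), and all 3 calls were lost without male control 2. *CG14075*, the 1 call in a list of genes of the corpora cardiaca and allata, endocrine glands attached to the brain, was at -2.53 ± 1.09. It had 166, 120 and 126 CPM in male 2 h brains, against 162, 2217 and 195 CPM in male controls, and 164, 244 and 76.1 CPM in female 2 h brains, against 229, 79.8 and 225 CPM in female controls. Its call rested on the 2217 CPM of male control 2, without which it was -0.27. *Akh*, the adipokinetic hormone made in the corpora cardiaca, had 4382 CPM in that library and 148 to 753 CPM in the other 11, and its interaction was -0.52 without that library, against -2.16 ± 1.38 with it. The 9 tested genes of the gland list summed to 441.9 to 894 CPM in male 2 h, 835.5 to 7099 CPM in male control, 661.7 to 848.8 CPM in female 2 h and 334.3 to 1124 CPM in female control brains. Without male control 2 the median of the neuropeptide list was -0.30 and that of the gland list -0.41, against -1.71 with it.

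Neuron and glia lists lay on opposite sides of the median. Of 16 neuron markers 13 were positive (median 0.45), and of 18 glia markers 14 were negative (median -0.72), with 1 call in both lists together, *Gat*. *Gat*, the GABA transporter of astrocyte-like glia, had 121, 80.8 and 69.5 CPM in male 2 h brains, against 98.6, 321 and 183 CPM in male controls, and 80.2, 243 and 86.3 CPM in female 2 h brains, against 88.9, 144 and 106 CPM in female controls. The groups overlapped in both sexes, and the interaction of -1.46 ± 0.68 was not called without female 2 h 2 (-0.73), without male control 2 (-0.95) or without any 1 of 4 other libraries. *nSyb*, the synaptobrevin of synaptic vesicles, had 590, 612 and 619 CPM in male 2 h brains, against 500, 63.0 and 351 CPM in male controls, and an interaction of 0.95 ± 0.81. Synaptic vesicle and active zone genes (23 of 28 positive, median 0.45) and voltage-gated ion channel genes (16 of 23 positive, median 0.37) lay with the neuron markers, with 1 call, *Teh4*, a sodium channel subunit, which no male control had reads of. Without male control 2 the medians were 0.16 for neuron markers, -0.30 for glia markers, 0.18 for synaptic genes and 0.16 for channels. The summed muscle level was also low in that library, and its part in these medians was not tested.

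**Figure D4:**
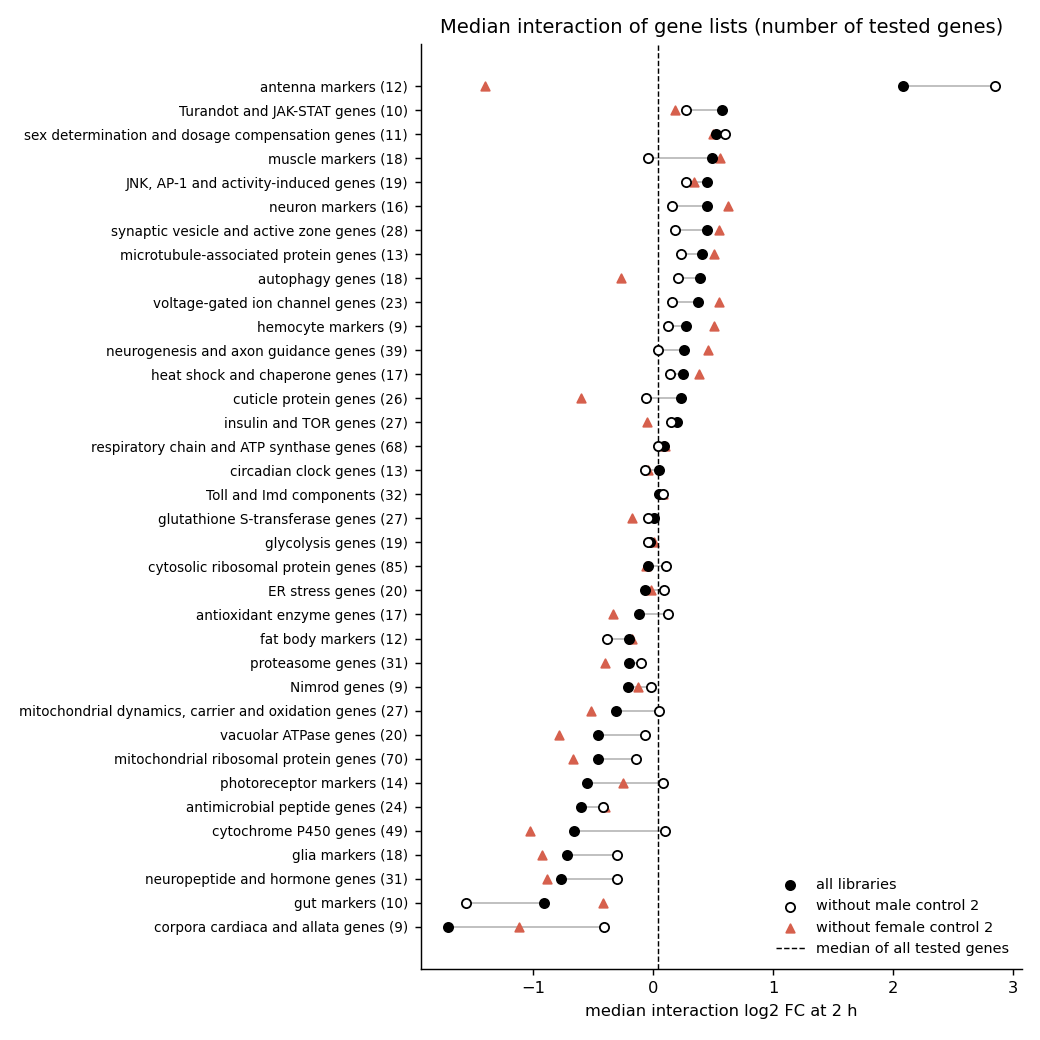
Median interaction log2 FC at 2 h of each gene list over its tested members. The lists of genes named in the study and of genes reported for single sexes at 2 h are left out. Filled circles are all libraries, open circles are without male control 2 and triangles without female control 2. The dashed line is the median of all tested genes. Of the lists plotted, antenna markers had the highest median, 2.08, and -1.40 without female control 2, and the corpora cardiaca and allata genes the lowest, -1.71, and -0.41 without male control 2.

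The antenna list shows the same dependence on a female library. Of its 12 tested members 11 were positive, with a median of 2.08 and a female log2 FC of -3.67, and without female control 2 the median interaction was -1.40. *Obp19a*, an odorant-binding protein, had 16 reads in male 2 h, 0 in male control, 2 in female 2 h and 165 in female control brains, all 165 in female control 2. *Os-C*, another antennal protein, was 163 CPM in female control 2 and its interaction was -1.41 without that library, against 3.68 ± 2.20 with it.

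Energy and protein synthesis genes are given beside the 3.65% of all tested genes called, a share that their counts are too small to be told from. Of 68 tested respiratory chain and ATP synthase genes 1 was called, negative, with a median of 0.09, and 19 glycolysis genes had a median of -0.03 and no call. Of 85 tested cytosolic ribosomal protein genes 2 were called, both negative, *RpL27A* (-1.39 ± 0.61) and *RpL31* (-1.40 ± 0.58), with a list median of -0.04. *RpL27A* had 820, 613 and 895 CPM in male 2 h brains, against 789, 3321 and 1439 CPM in male controls, and its interaction was -0.66 without male control 2.

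Of 70 tested mitochondrial ribosomal protein genes, 49 were negative, with a median of -0.46 (-0.14 without male control 2), and 1 was called. That was *mRpL55*, with 1.73, 5.29 and 4.49 CPM in male 2 h brains, against 21.1, 107 and 7.35 CPM in male controls, and 33, 8.36 and 0 CPM in female 2 h brains, against 4.13, 25.4 and 0 CPM in female controls. All injured males were below all male controls, and the female groups overlapped. The interaction was -4.0 ± 1.92, and the call was lost without any 1 of 7 libraries. *aralar1*, a mitochondrial aspartate-glutamate carrier, had 17.3, 0 and 8.97 CPM in male 2 h brains, against 0, 95.3 and 37.8 CPM in male controls, and an interaction of -3.02 ± 1.31. Its call was lost without any 1 of 4 libraries, male control 2 among them (-1.99). Of 27 tested genes of mitochondrial dynamics, carriers and oxidation it was 1 of 2 called, both negative, and the other was *Tom20*, a receptor of the outer membrane import pore, at -3.21 ± 1.49 and lost without any 1 of 6 libraries. Vacuolar ATPase genes, whose products acidify lysosomes and synaptic vesicles, were negative for 16 of 20, with a median of -0.46 and 1 call, *VhaPPA1-1* (-2.70 ± 1.22). Without male control 2 that median was -0.07 and *VhaPPA1-1* was not called. Of 16 genes that the study itself named, which were chosen on these samples and are no independent evidence of direction, 11 were negative and 2 were called, *mRpL55* and *aralar1*, with a median of -2.42.

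Most stress and detoxification lists were near the median or moved with single libraries. Of 20 tested ER stress genes 1 was called positive, *Edem1*, which has few reads, and 1 negative, *Sec61alpha*, with a median of -0.07. Heat shock and chaperone genes had 1 call of 17, positive, for *Hsp67Bc*, a small heat shock protein, at 4.71 ± 2.21, lost without any 1 of 8 libraries. Of 49 tested cytochrome P450 genes 31 were negative, with a median of -0.66, and 0.10 without male control 2. Their 1 call was *Cyp6v1*, positive. Glutathione S-transferase genes (27 tested, median 0.01), Turandot and JAK-STAT genes (10 tested, median 0.57) and circadian clock genes (13 tested, median 0.05) had no call in either direction. The Turandot and JAK-STAT median was 0.27 without male control 2 and 0.18 without female control 2. The 11 tested sex determination and dosage compensation genes had no call and a median of 0.52. That median was 0.60 without male control 2 and 0.50 without female control 2.

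A further set of genes was high in the 5 libraries where *MRE16*, a very abundant transcript, was highest. *MRE16* had 44340, 139300 and 20650 CPM in male 2 h brains, against 16710, 288800 and 174100 CPM in male controls, and 159600, 170600 and 14240 CPM in female 2 h brains, against 44990, 176200 and 58730 CPM in female controls. Its groups overlapped in both sexes, and its interaction was -1.53 ± 1.79, not called. *Cat* (catalase, which removes hydrogen peroxide) had 20.8, 11.3 and 8.97 CPM in male 2 h brains, against 21.1, 553 and 154 CPM in male controls, and 241, 139 and 2.54 CPM in female 2 h brains, against 22.7, 426 and 22.5 CPM in female controls. The 5 highest libraries of both were male controls 2 and 3, female 2 h 1 and 2 and female control 2. They were also deep, with 1034729 to 1407485 reads assigned to genes. Male 2 h 2, next highest in *MRE16*, had 1471729 reads, and the rest had 117416 to 732181. High *MRE16* thus went with library depth, which was uneven between the 4 groups, and the part of depth in this pattern was not tested.

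*sun* (stunted, a subunit of the ATP synthase), *Npc2a* (a sterol-binding protein), *CG40045*, *CG41128* and *CG9512* were high in those 5 libraries as well. The interaction was -3.65 ± 1.67 for *sun*, -3.28 ± 1.53 for *Npc2a* and -4.61 ± 1.8 for *CG40045*, all called and all lost without male control 2. It was -3.89 ± 2.36 for *Cat*, -3.36 ± 1.72 for *CG41128*, -2.81 ± 1.90 for *CG9512* and -3.32 ± 1.71 for *arm* (the beta-catenin of the fly), none of them called. These genes depended on the filter. With no filter on low counts, 9 genes passed an FDR of 0.05 in edgeR, where the filtered fit had none, and they were *MRE16* (adjusted p = 0.00172), *Cat* (0.00116), *CG41128* (0.00116), *CG9512* (0.00165), *CG40045* (0.0115), *sun* (0.0121), *Npc2a* (0.0457), *Obp19a* (0.0333) and *CG5172* (2.55e-05). Their fitted values hardly moved, for example -3.89 with and without the filter for *Cat*. Male 2 h 2 went apart from this, with *MRE16* at 139300 CPM, the highest of the injured males, but *sun* and *CG40045* at 0.76 CPM each, *Npc2a* at 15.1 and *Cat* at 11.3 CPM. The part of *MRE16* in these interactions was not tested. *CG5172* had 7, 128 and 0 reads in female 2 h and 0, 18 and 47 reads in male control brains, so single libraries held most of them. In the filtered fit it was not called, at -5.41 ± 2.71, with left-out fits from -6.55 to -2.09.

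**Figure D5:**
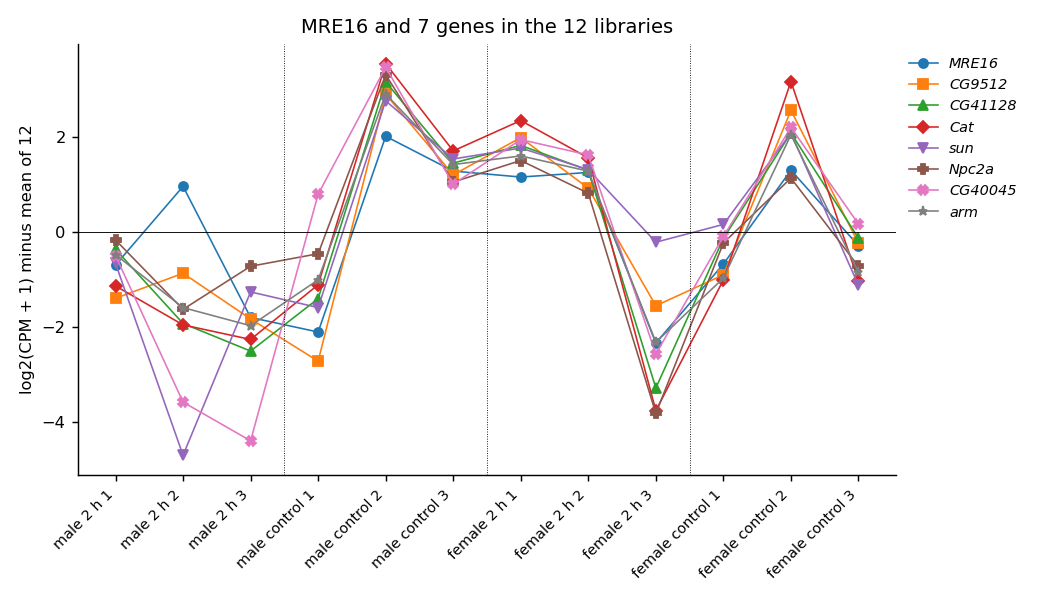
log2(CPM + 1) of *MRE16* and 7 genes in each of the 12 libraries, each minus its own mean over the 12, with dotted lines between male 2 h, male control, female 2 h and female control. Male controls 2 and 3, female 2 h 1 and 2 and female control 2 lie above 0 for all 8.

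Some genes moved in the same direction in both sexes at 2 h. Those given here were reported earlier for single sexes at 2 h from these data, so their direction is no independent evidence. How many of all tested genes moved alike in both sexes was not counted. *plum*, an immunoglobulin-family receptor of neurons, had 102, 147 and 108 CPM in male 2 h brains, against 49.3, 34.7 and 64.0 CPM in male controls, and 125, 128 and 150 CPM in female 2 h brains, against 82.7, 54.4 and 58.2 CPM in female controls. Injured brains of both sexes lay above all controls of their sex. The log2 FC was 1.27 ± 0.40 in males and 1.05 ± 0.39 in females, and the interaction 0.22 ± 0.55. *emc*, an inhibitor of basic helix-loop-helix factors, had a log2 FC of 0.93 ± 0.41 in males and 1.05 ± 0.40 in females, and an interaction of -0.12 ± 0.57. *CG13284* was lower after injury in both sexes, at -1.38 ± 0.79 in males and -2.46 ± 0.80 in females, with an interaction of 1.08 ± 1.11. The interaction was smaller than its SE for the other two and close to it for *CG13284*, which does not show that the sexes respond alike. *jhamt*, the enzyme of the last steps of juvenile hormone synthesis in the corpora allata, had reads in every control library and in no injured one, at 7.04, 129 and 7.35 CPM in male controls and 6.20, 5.26 and 9.26 CPM in female controls, so no interaction could be estimated.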

How the data were processed

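Libraries of single brains were prepared with the QuantSeq 3′ mRNA-Seq kit (forward) and read out per gene. Per the labels and methods, reads were demultiplexed with CASAVA 1.8.2 and mapped with STAR 2.4 to the dm3 build, and the authors tallied them by gene in HTSeq. The deposited counts are not normalized. The strand setting, annotation version and filters are not given in the sources used here. The deposited tables of comparisons (injured groups against control, and control strains against each other) hold log2 fold changes, p-values and FDR that the authors computed with edgeR 3.22.3, and none of them was used. No column of another series was present (0).

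Rows whose names start with __ were dropped. Genes with at least 5 counts in at least 3 libraries (7865) were kept, and TMM factors were computed. All 24 libraries were fitted as 8 groups with robust glmQLFit in edgeR 4.0.16 (R 4.3.3), and the interaction was tested with glmQLFTest. The SE is the absolute log2 FC divided by the square root of F. A call is an unadjusted p under 0.05 with an absolute log2 FC over 1. Adjusted p-values are Benjamini-Hochberg values over all tested genes. CPM use TMM-scaled library sizes. DESeq2 1.42.0 and limma 3.58.1 (voom with quality weights) were alternatives, beside RLE scaling, other filters, the 12 libraries alone, a replicate block and left-out libraries. The code was tested on simulated data. Figures were drawn with matplotlib 3.10.9.

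Named genes were taken by lowest p. In each direction they were up to 12 calls that held with every library left out and up to 5 that did not. Up to 4 in each direction had 3 reads or fewer in a group, and up to 10 passed an FDR of 0.05 in any tool. All called members and up to 3 of lowest p of each gene list were added, with the genes the study names. Also added were 12 genes reported earlier from these data for single sexes at 2 h. The text gives a selection, and 1 called gene of the insulin and TOR list is not reported here. The contrast and the gene lists were chosen with earlier results of these data known. Of 684 list entries 16 matched no gene of the files. Of the symbols of the files, 16920 were found in the RefSeq gene table, and no coordinates are printed because the reference at hand is of another build. Replicate numbers were not taken to pair samples, since the labels give equal numbers no shared origin. Rows that name no gene were left out of library sizes, and held 13.86 to 32.19% (multimapped), 6.55 to 8.71% (ambiguous) and 1.74 to 6.68% (no feature) of the tallied reads of the 12 libraries.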

Additional observations from a re-analysis of the deposited data

Results flagged for a closer look

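Of the genes described above, 3 had male and female libraries that moved in opposite directions with no overlap in either sex and were called in the interaction by edgeR. *Tsp42Eg* had an interaction log2 FC of 2.66 and *CG32452* of 2.54, with every injured male above every male control and every injured female below every female control. *Sps2* had -1.83, with every injured male below every male control and every injured female above every female control. Their adjusted p by edgeR was 0.9999 each. With 3 libraries in each group such separation can arise by chance. It was seen in only 13 of the 7865 tested genes (0.165%), a share that is not read as more than chance gives, and this was not tested.

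*Obp19a* was the only gene with an adjusted p under 0.05 in DESeq2, at a fitted interaction of 24.71 (adjusted p 6.76e-13). Male controls had 0 reads and 165 of its reads in female controls were in 1 library, so the fitted size is no bound on the change. edgeR gave it an adjusted p of 0.9999.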

How the results depend on the processing

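The count of 287 interaction calls at 2 h was 596 without the 3 shallowest libraries, 168 with filterByExpr, 620 with limma voom, 463 with no filter and 180 from the 12 libraries alone, and 186 to 476 with 1 library left out. Of the 287, 105 were called without male control 2, 138 without female 2 h 1, 147 by limma voom and 183 by DESeq2. At an FDR of 0.05, 1 gene passed in DESeq2 (*Obp19a*) and 9 with no filter. The 239 calls at 1 h were 451 without the 3 shallowest libraries, 120 with filterByExpr, 362 with no filter and 113 from 12 libraries alone, and 176 to 577 with 1 library left out, and at an FDR of 0.05 there were 1 without the 3 shallowest libraries, 1 in DESeq2, 5 with no filter and 0 to 1 with 1 library left out. The 240 calls at 4 h were 138 with filterByExpr and 137 to 362 with 1 library left out, with 1 at that FDR in DESeq2 and 11 with no filter. *CG14075* (-2.53) turned to 0.09 with male control 2 and female control 2 left out. The cause of these shifts was not tested. Of 836 list medians, 72 moved by more than 1 SD of the libraries. The median SE of 1.29 and the 117416 reads of the shallowest library limit the precision.

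With the replicate number as a block, 341 genes were called at 2 h, 239 of them among the 287. The labels give no shared animal, batch or day for equal numbers, and same-number pairs correlated at -0.52 to 0.72, 11 of 18 over 0.1, so the numbers were not taken as a pairing. In 19 of 36 comparisons a library correlated best with its own number. Each comparison had 3 candidates and the same 12 libraries were reused, so some such cases arise by chance. Other-number pairs correlated at -0.67 to 0.72. A number may mark something shared, which was not tested.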
